A study of Gallus gallus with 50 samples.

Results

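The step from migrating to late migrating cranial crest was followed in 7 sequencing libraries of GFP-positive cells, 4 from chicken embryos at Hamburger-Hamilton stage 12 (HH12) and 3 at HH14. They are all the GFP-positive libraries of those stages among the 42 that the authors kept in their filtered table, out of 50 libraries in the series, and they were chosen by label alone. HH stages are the standard morphological steps of chick development, and the series covers 6 of them in 2 sorted populations. The labels give no genotype or strain. Every embryo was grown outside the shell at 37 °C and had been electroporated with ptk-TFAP2AE1-GFP, a plasmid in which the E1 enhancer of the transcription factor gene TFAP2A drives green fluorescent protein. The GFP-positive cells are labelled neural crest. The GFP-negative cells of the same dissected heads, 4 libraries at HH12 and 3 at HH14, carry the label whole embryo and serve here as the second population. About 20 heads were pooled for each sort. The reporter limits both populations as models: a crest cell that missed the plasmid is sorted as GFP-negative, and any cell with an active enhancer is sorted as GFP-positive.

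Neural crest cells arise at the border of the closing neural tube, lose their epithelial contacts and travel through the embryo before they settle. Cranial crest moves in streams into the face and pharyngeal arches, where it gives rise to cartilage and bone of the head, to connective tissue, and to neurons and glia of the cranial ganglia, while other crest cells become pigment cells. At the stages compared here the streams are underway or near their targets, and many cells are passing from migration toward differentiation. In sorted bulk samples, fewer cells of a type and less RNA per cell cannot be told apart.

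The files identify genes by Ensembl accession on the GRCg6a assembly and do not pair them with symbols, so genes are given here by identifier and position and without a role. For the same reason the sorted cells could not be checked against the defining markers of crest or of other head tissues. They were checked instead against genes that separated GFP-positive from GFP-negative cells at HH6, HH8, HH10 and HH16. Those libraries are on neither side of the HH12 to HH14 contrast, but all 42 libraries shared the scaling, filter and dispersion of the same fit. Averaged over those stages, 328 genes (2.08% of those tested) were called higher in GFP-positive cells and 814 (5.17%) lower. Of the former, 273 reached 10 CPM (reads of a gene per 1000000 counted, on scaled library sizes) in GFP-positive cells at HH12 or HH14. This level was set on GFP-positive libraries alone, so the choice of genes is not neutral between the 2 populations. Their median difference between GFP-positive and GFP-negative cells was 0.52 on the log2(CPM + 1) scale at HH12 and 0.52 at HH14, against 0.03 and 0.05 over all 9266 genes at that level. The GFP-positive mean was higher for 255 of the 273 (93.4%) at HH12 and for 263 (96.3%) at HH14. All GFP-positive libraries lay above all GFP-negative libraries for 116 of them (42.5%) at each stage, where 4.96% of all genes did so at HH12 and 7.05% at HH14. Of the latter, 347 reached that level, and 158 (45.5%) lay wholly below the GFP-negative libraries at HH12 and 189 (54.5%) at HH14, against 3.97% and 5.75% of all genes. Genes that part the sorted populations at other stages thus parted them at HH12 and HH14 as well, in the same direction for most.

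Both genes with the smallest p-values among those higher in GFP-positive cells at the other stages were followed library by library. ENSGALG00000002515, on chromosome 17 from 7899618 to 7927026, stood at 166.6, 165.6, 154.7 and 167.5 CPM in the 4 HH12 libraries and at 139.6, 95.7 and 84.8 CPM in the 3 HH14 libraries. The stages did not overlap, and the GFP-positive libraries were above all GFP-negative ones except HH14 replicate 3, which lay just below the highest of those at 85.4 CPM. Its fitted change from HH12 to HH14 was -0.62 on the log2 scale (95% interval -1.08 to -0.16), with an adjusted p of 1 from edgeR's quasi-likelihood test, so the lower values at HH14 did not pass the test. ENSGALG00000043204, on chromosome 21 from 4449679 to 4535824, stood at 44.7, 37.3, 42.9 and 84.8 CPM at HH12 and at 85.5, 40.2 and 29.3 CPM at HH14. The stages overlapped fully, and all 7 libraries lay above the GFP-negative libraries, whose highest value was 16.7 CPM. Its fitted change was -0.02 on the log2 scale, with a 95% interval from -0.96 to 0.91.

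No gene passed the test between HH12 and HH14. Among 15737 genes tested with edgeR's quasi-likelihood F test, 0 had an adjusted p under 0.05 (0% called), and the lowest adjusted p was 0.972. At an unadjusted p under 0.05 there were 480 genes (3.05%), 262 with a higher fitted level at HH14 and 218 with a lower one. That share is below the 5% expected at this threshold if no gene changed, and it moved with the setting. The 2 groups alone gave 583 of 13453 genes. With each GFP-positive library left out in turn, the count ran from 320 to 719. limma voom called 0 genes, with 453 at an unadjusted p under 0.05, and DESeq2 called 8 (0.0508%), with 556. The same fit called 0 genes from HH10 to HH12, 397 (2.52%) from HH14 to HH16 and 1110 (7.05%) from HH10 to HH16. The neighbouring steps share the HH12 or HH14 libraries with the step described here, and whether the steps differ in their number of calls was not tested.

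A missed threshold does not show that levels were the same, so the precision of each estimate matters. For the 9266 genes with at least 10 CPM in the higher stage, the median standard error of the log2 fold change was 0.31, and the median half-width of the 95% interval was 0.63. That interval lay within a 2-fold change in either direction for 6000 genes (64.8%) and within a 4-fold change for 8914 (96.2%). The median log2 fold change of all tested genes was 0.01. For the remaining genes the interval reached a 2-fold change or more in at least 1 direction.

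The 7 libraries did not fall together by stage. Pearson correlations of log2(CPM + 1), computed across 12784 genes, which are not independent replicates, had a median of 0.950 over the 9 pairs of the same stage and 0.951 over the 12 pairs of different stages. HH14 replicate 3 reached 0.967 and 0.972 with HH12 replicates 1 and 2, and 0.942 and 0.924 with the other 2 libraries of its own stage. HH12 replicate 4 was most like HH14 replicate 1, at 0.972. The description of each library holds a run code, which is taken here to stand for its sequencing flow cell. HH12 replicates 3 and 4 and HH14 replicates 1 and 2 came from 2 flow cells that carried both stages, HH12 replicates 1 and 2 shared another, and HH14 replicate 3 was the only 1 of the 7 on its flow cell. In a grouping noticed in these values, the 9 pairs within the first 4 libraries or within the other 3 had a median of 0.965 (0.952 to 0.984) and the 12 pairs across them a median of 0.938 (0.907 to 0.955). The map of these correlations shows the same arrangement. A fit with the flow cell as a term called 0 genes, and so did a fit of the 2 flow cells that carried both stages, with 456 and 358 genes at an unadjusted p under 0.05. The part of the flow cell in these correlations was not tested.

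**Figure D1:**
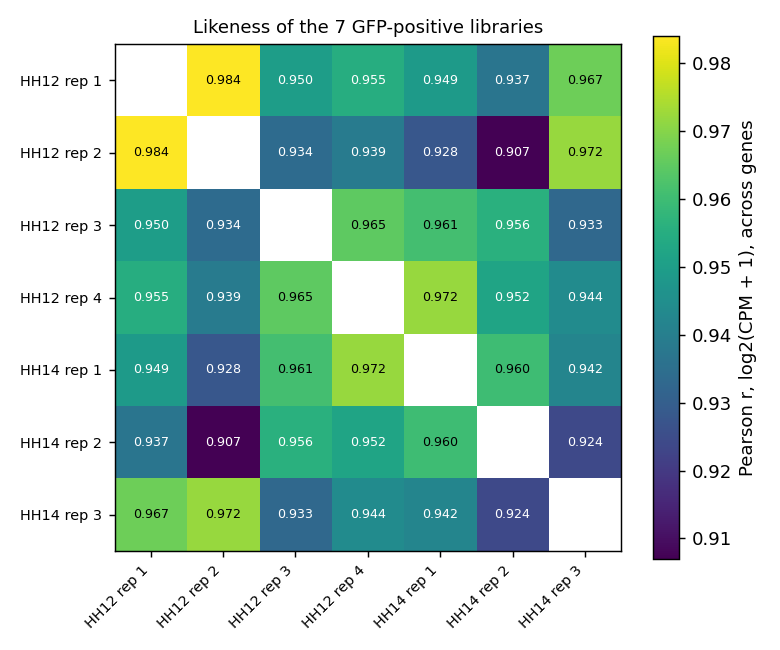
Each square gives the Pearson correlation, across 12784 genes on the log2(CPM + 1) scale, between a pair of the 7 GFP-positive libraries (HH12 replicates 1 to 4, HH14 replicates 1 to 3), with colour running from 0.907 to 0.984 and the diagonal left blank. HH14 replicate 3 is closer to HH12 replicates 1 and 2 (0.967 and 0.972) than to the other HH14 libraries (0.942 and 0.924).

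Separation of the libraries gives a description that needs no call. Of the 9266 genes at 10 CPM or more, 198 (2.14%) had every HH14 library above every HH12 library and 300 (3.24%) had every HH14 library below, which makes 498 genes (5.37%). This is a count with no test, and no effect of stage is read from it. The median fitted change was 0.56 on the log2 scale among the 198 and -0.51 among the 300. Only 34 of the first and 23 of the second exceeded a 2-fold change. The fitted changes reached 11.45 upward and -1.73 downward, so the widest changes lay on the upper side. The plot of change against level shows 4 genes far above the remainder of the 198, and these are described further on.

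**Figure D2:**
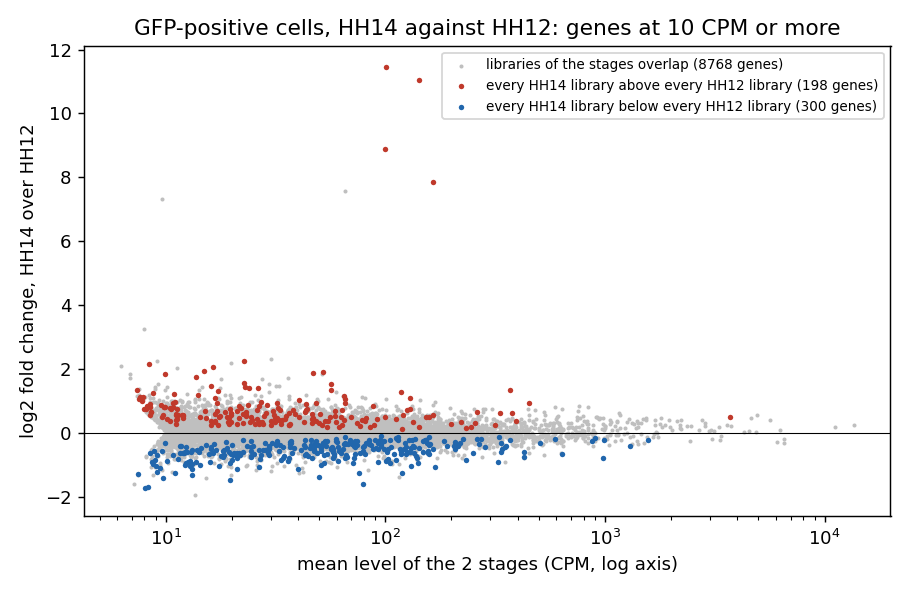
Each point is 1 of the 9266 genes with at least 10 CPM at HH12 or HH14 in GFP-positive cells, with the mean of the 2 stages in CPM on a log axis against the fitted log2 fold change of HH14 over HH12. Genes whose libraries do not overlap are in colour, 198 higher at HH14 and 300 lower, and 4 of the higher ones lie far above the remainder of the 198.

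The same genes were then read in the GFP-negative cells of the same stages. Libraries whose titles share a stage and a number or tag were taken to be from the same embryo pool, which is an inference. Of the 7 GFP-negative libraries, 6 share such a pool and a flow cell with a GFP-positive library that chose the genes. Partners deviated together from their group means (r = 0.128 to 0.619 across genes), so the reading is not independent of the choice. There, 175 of the 198 genes (88.4%) had a fitted change above 0, with a median of 0.29 on the log2 scale. Of the 300 genes, 53 (17.7%) had a change above 0 there and the median was -0.19. Over all 9266 genes, 47.8% lay above 0 and the median was -0.02, which is not the value that genes chosen in partner libraries would take without a change. The GFP-negative comparison itself called 0 of 15737 genes (0% called), with 253 at an unadjusted p under 0.05, 1356 without HH12 GFP-negative replicate 3 and 784 without HH14 GFP-negative replicate 3. DESeq2 and limma voom also called 0 there, with 299 and 240 genes at an unadjusted p under 0.05. The test of the difference between the populations, the change in GFP-positive cells minus the change in GFP-negative cells, called 0 of 15737 genes (0% called), with 99 at an unadjusted p under 0.05. DESeq2 and limma voom called 0 for this difference too, with 102 and 106 genes at an unadjusted p under 0.05. These fits do not pair the populations of a pool. With the pool as a block, limma voom called 0, with 273 genes at an unadjusted p under 0.05. An edgeR fit of 14236 genes with the pool as a fixed term called 0, with 359. No gene was thus shown to change in crest differently from the remaining head cells between these stages.

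The GFP-positive course between HH10 and HH16 gave a second reading. Its contrast holds neither stage compared here, but it comes from the same fit. Some HH10 and HH16 libraries, GFP-negative ones included, also share a flow cell with GFP-positive libraries of HH12 or HH14. The reading is thus not fully separate. Over all tested genes 3.06% were called higher at HH16 in it and 4% lower. Of the 198 genes, 143 (72.2%) were higher at HH16 than at HH10, and 23 (11.6%) were called higher and 10 (5.05%) called lower. Of the 300 genes, 78 (26%) were higher at HH16, and 41 (13.7%) were called lower and 3 (1.0%) called higher. Over all 9266 genes, 55.7% were higher at HH16, 3.17% were called higher and 4.24% called lower.

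Read in the other direction, genes called between HH10 and HH16 had small median changes between HH12 and HH14, in the direction of their longer course. The 294 genes that rose in GFP-positive cells between HH10 and HH16 and reached 10 CPM here had a median log2 fold change of 0.20 from HH12 to HH14, with 75.9% above 0. Among them 23 (7.82%) had every HH14 library higher and 3 (1.02%) every HH14 library lower, beside 2.14% and 3.24% over all genes. The 393 genes that fell from HH10 to HH16 had a median of -0.15, and 10 (2.54%) and 41 (10.4%) of them separated upward and downward. Their 33.8% above 0 stands beside 49.7% over all genes. Without HH14 replicate 2 the medians came to 0.10 and -0.09, with no change of sign. In that setting 26 (9.19%) and 10 (3.53%) of the rising genes separated upward and downward, and 33 (8.4%) and 52 (13.2%) of the falling genes, beside 4.52% and 5.5% of all genes. The falling median also moved to -0.09 without HH12 replicate 3 and -0.23 without HH14 replicate 1. The medians of the rising and the falling genes were 0.16 and -0.29 in the 2 flow cells with both stages, 0.18 and -0.25 with the flow cell as a term, and 0.11 and -0.09 with all 50 libraries. In GFP-negative cells the same 2 groups had medians of 0.03 and 0.02 between HH12 and HH14.

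Genes chosen from the GFP-negative course gave similar values in GFP-positive cells. The 170 genes that rose in GFP-negative cells between HH10 and HH16, where 1.77% of tested genes were called higher and 3.12% lower, had a median of 0.24 on the log2 scale in GFP-positive cells from HH12 to HH14, and 24 of them (14.1%) separated upward against 1 downward. The 256 genes that fell had a median of -0.24, and 25 (9.77%) separated downward against 1 upward. The shares over all 9266 genes were 2.14% upward and 3.24% downward. Without HH14 replicate 2 these medians were 0.14 and -0.23, without HH12 replicate 3 they were 0.19 and -0.15, and in the 2 flow cells with both stages 0.29 and -0.39. The GFP-negative cells themselves gave 0.10 and -0.01 for the same 2 groups between HH12 and HH14.

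**Figure D3:**
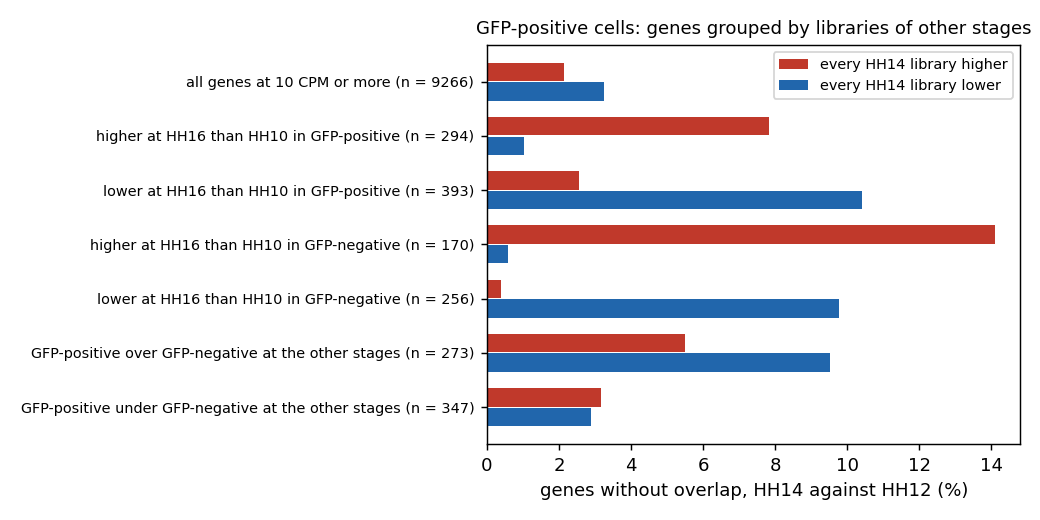
Bars give the share of each gene group, in percent, for which every HH14 GFP-positive library lay above (red) or below (blue) every HH12 GFP-positive library, with groups taken from HH10 against HH16 and from GFP-positive against GFP-negative cells at HH6, HH8, HH10 and HH16. Genes that rose from HH10 to HH16 separated upward in 7.82% and 14.1% of cases and genes that fell separated downward in 10.4% and 9.77%, beside 2.14% and 3.24% over all 9266 genes.

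The genes that mark GFP-positive cells at the other stages separated in both directions, though their median change was small and negative in every setting run. Of the 273, 15 (5.49%) separated upward and 26 (9.52%) downward, and their median log2 fold change was -0.09, with 35.9% above 0, beside 2.14%, 3.24% and 49.7% over all genes. Without HH14 replicate 2, 30 (11%) separated upward and 31 (11.4%) downward, beside 4.52% and 5.5% of all genes, so the 2 directions then had close counts. The median was -0.03 without HH14 replicate 2, -0.15 without replicate 3 and -0.17 without replicate 1, and -0.14 with the flow cell as a term. Of the 347 genes lower in GFP-positive cells, 11 (3.17%) separated upward and 10 (2.88%) downward, with a median of -0.01, and these shares are near the 2.14% and 3.24% of all genes.

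Because no gene passed the test, the genes described individually are those with the smallest unadjusted p-values among genes without overlap at 10 CPM or more, and they are given as values. The 10 higher at HH14 had fitted log2 changes from 0.89 to 11.45 (median 2.05), and the 10 lower had changes from -0.61 to -1.11 (median -0.80). In GFP-negative cells, which mostly share pools with them, all 10 and all 10 had the same sign. Between HH10 and HH16, 10 of 10 and 9 of 10 had the same sign, and 5 and 3 were called in that direction, where 55.7% of all genes at 10 CPM or more were higher at HH16 and 3.06% and 4% of all tested genes were called higher and lower. Of those 5, 4 are the neighbours on chromosomes 1 and 14 described below, which share their high library and are not separate cases.

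The smallest p-value among the lower genes was that of ENSGALG00000004254, on chromosome 15 from 5900288 to 5913095 on the plus strand. It stood at 86.9, 81.1, 93.4 and 74.3 CPM in the HH12 libraries and at 60.5, 44.9 and 45.8 CPM in the HH14 libraries. The stages did not overlap, and the gap lay between 74.3 and 60.5 CPM. The means were 83.9 ± 8.14 CPM (SD, n = 4) and 50.4 ± 8.78 CPM (SD, n = 3), and the fitted log2 change was -0.74 ± 0.17 (SE), with an adjusted p of 0.972 by edgeR. DESeq2 was the only tool of the 3 that called it, with an adjusted p of 0.0154, and without HH14 replicate 2 its DESeq2 adjusted p was 0.876. The DESeq2 log2 change was -0.73 with that library and -0.65 without it. Over the 6 stages its GFP-positive means in CPM were 45.9 at HH6, 53.7 at HH8, 75.9 at HH10, 83.9 at HH12, 50.4 at HH14 and 46.2 at HH16. The level was thus highest at HH10 and HH12, whose libraries overlap, and the HH14 libraries overlapped in range with those of HH6, HH8 and HH16. In GFP-negative cells the means were 49.3 ± 5.83 CPM at HH12 and 36.3 ± 2.1 CPM at HH14, a fitted change of -0.44.

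A second gene of the lower group, ENSGALG00000003078 on chromosome 18 from 5945780 to 5973025 on the minus strand, was more abundant. Its levels were 476.8, 450.4, 329.4 and 360.1 CPM at HH12 and 302.9, 258.0 and 234.5 CPM at HH14. Here too every HH14 library was lower, with the smallest gap between HH12 replicate 3 and HH14 replicate 1, which share a flow cell. The fitted log2 change was -0.61 ± 0.17 (SE), with an adjusted p of 1 by edgeR. It was -0.38 with the flow cell as a term and -0.32 in the 2 flow cells that carried both stages. Its GFP-positive mean was 195.8 CPM at HH6, 204.6 at HH8, 280.9 at HH10, 404.2 at HH12, 265.1 at HH14 and 217.4 at HH16, so that the highest mean was at HH12. In GFP-negative cells it stood at 311.7 ± 61.0 CPM at HH12 and 228.4 ± 31.2 CPM at HH14, and the test of the difference between the populations gave an adjusted p of 1 by edgeR.

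**Figure D4:**
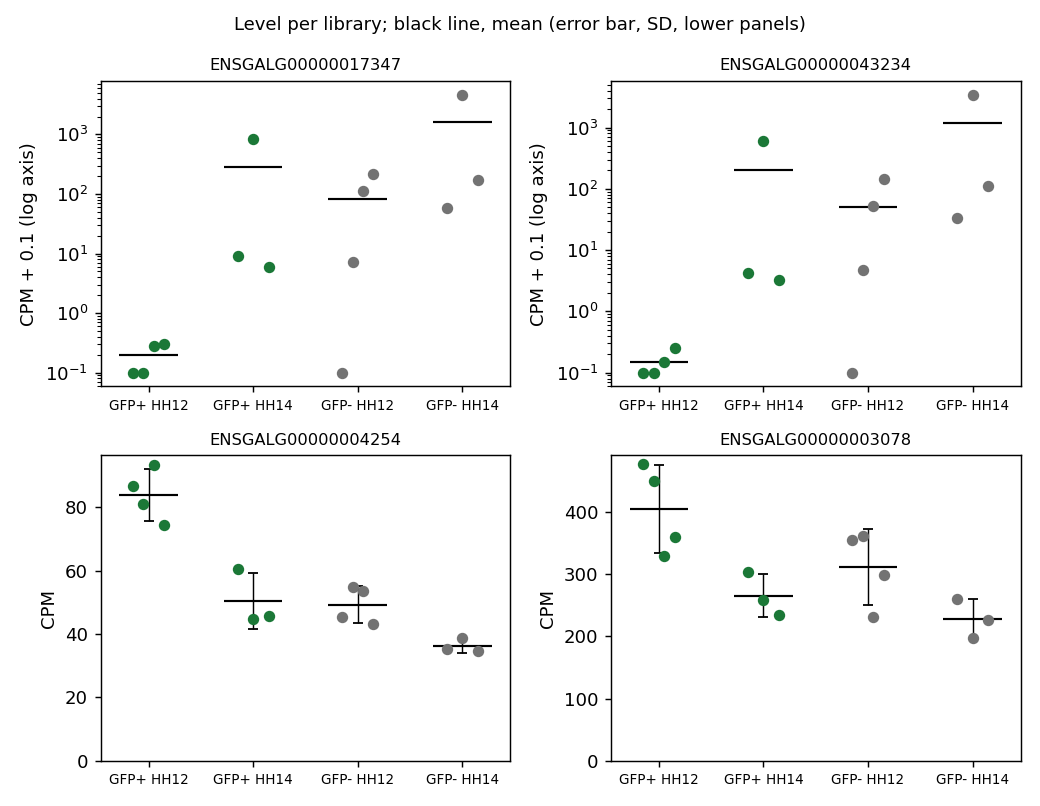
Points are single libraries of GFP-positive (green) and GFP-negative (grey) cells at HH12 and HH14 for 4 genes, in CPM, with the upper panels as CPM + 0.1 on a log axis and the lower panels on a linear axis from 0. Black lines are means and the error bars of the lower panels are SD (n = 4 at HH12, n = 3 at HH14). In the upper panels HH14 replicate 2 is far above the other libraries in both populations, and in the lower panels every HH14 GFP-positive library is below every HH12 GFP-positive library.

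The widest separations upward belonged to genes that are nearly silent in GFP-positive cells through HH12. ENSGALG00000017347, on chromosome 1 from 197288212 to 197289402 on the minus strand, had 0, 0, 0.185 and 0.202 CPM at HH12 and 8.91, 838.9 and 5.81 CPM at HH14. All 3 HH14 libraries were above all 4 HH12 libraries, but replicate 2 was far above the other 2 and alone reached 10 CPM. The HH12 values rest on 0, 0, 4 and 4 reads. The fitted log2 change was 11.05 ± 2.53 (SE), with an unadjusted p of 0.000131 and an adjusted p of 0.972 by edgeR. It was 5.78 without HH14 replicate 2. ENSGALG00000043234, on chromosome 14 from 12510348 to 12511196 on the plus strand, had 0, 0, 0.0462 and 0.151 CPM at HH12 and 4.11, 593.7 and 3.15 CPM at HH14. Its libraries were ordered in the same manner as those of the first gene, and again only HH14 replicate 2 reached 10 CPM. The fitted log2 change was 11.45 ± 2.76 (SE), with an adjusted p of 0.972 by edgeR, and 5.67 without HH14 replicate 2. DESeq2 called both genes, with adjusted p of 7.05e-05 and 6.68e-06, and without HH14 replicate 2 it called neither.

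In GFP-negative cells the same genes were more abundant and also uneven. ENSGALG00000017347 had 0, 7.16, 112.4 and 212.4 CPM at HH12 and 58.1, 4610 and 172.3 CPM at HH14, so that the stages overlapped. ENSGALG00000043234 had 0, 4.66, 52.1 and 145.2 CPM at HH12 and 32.8, 3404 and 111.8 CPM at HH14. In each population HH14 replicate 2 was highest, and both replicates 2 share a stage and number in their titles, taken as the same pool of embryos. At HH16 the GFP-positive libraries ranged from 7.55 to 933.5 CPM for ENSGALG00000017347 and from 3.96 to 471.6 CPM for ENSGALG00000043234. At HH6, HH8 and HH10 no GFP-positive library exceeded 0.528 CPM for the former or 0.670 CPM for the latter.

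These genes have neighbours that were also highest in HH14 replicate 2 among the GFP-positive libraries. HH14 replicate 2 stood more than 4-fold above each of the other 6 GFP-positive libraries, with a pseudocount of 1 CPM, for 14 of 10007 genes, where HH14 replicate 3 did so for 4 genes, HH14 replicate 1 for 2 and each HH12 library for 0. Of the 14, 12 were also highest in replicate 2 among the HH14 GFP-negative libraries. That library shares its pool and flow cell with the GFP-positive library that chose the genes, so the count is not a separate reading. No share over all genes is given beside it. A group of 3 lay on chromosome 1 between 197275578 and 197289402 and another 3 on chromosome 14 between 12503627 and 12511196. The summed level of these 6 genes in GFP-positive cells was 1.48, 0.614, 4.80 and 3.33 CPM at HH12 and 33.4, 3385 and 22.7 CPM at HH14. In GFP-negative cells it was 2.14, 27.2, 370.6 and 870.9 CPM at HH12 and 226.4, 20340 and 699.9 CPM at HH14. Every HH14 GFP-positive library was thus above every HH12 one for this sum. Not each of the 6 genes did so. A gene of the chromosome 14 group had 0.942 CPM in HH14 replicate 3 and 1.25 CPM in HH12 replicate 3. A gene of the chromosome 1 group had 0 and 0.416 CPM in the same libraries. The 6 genes were chosen by the height of HH14 replicate 2, and among the 7 GFP-positive libraries they reached 10 CPM only there. Several of them had also been picked for not overlapping, so the order of the summed level was largely fixed by the choice. GFP-negative libraries were higher than their GFP-positive partner in each pool.

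Set against the GFP-negative cells of the same pool, the GFP-positive sum came to 14.8%, 16.6% and 3.25% in the 3 HH14 pools and to 69.1%, 2.26% and 0.898% in the 3 HH12 pools with both libraries. The first of those HH12 values rests on 12 and 22 reads. The 2 stages overlapped in this ratio. What part GFP-negative RNA or cells have in the GFP-positive level of these genes was not tested. Of the 8 genes that DESeq2 called, 6 were among the 14 that stood apart in HH14 replicate 2, and a seventh had reads in that library alone at 1.74 CPM. DESeq2 called 0 genes without that library.

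**Figure D5:**
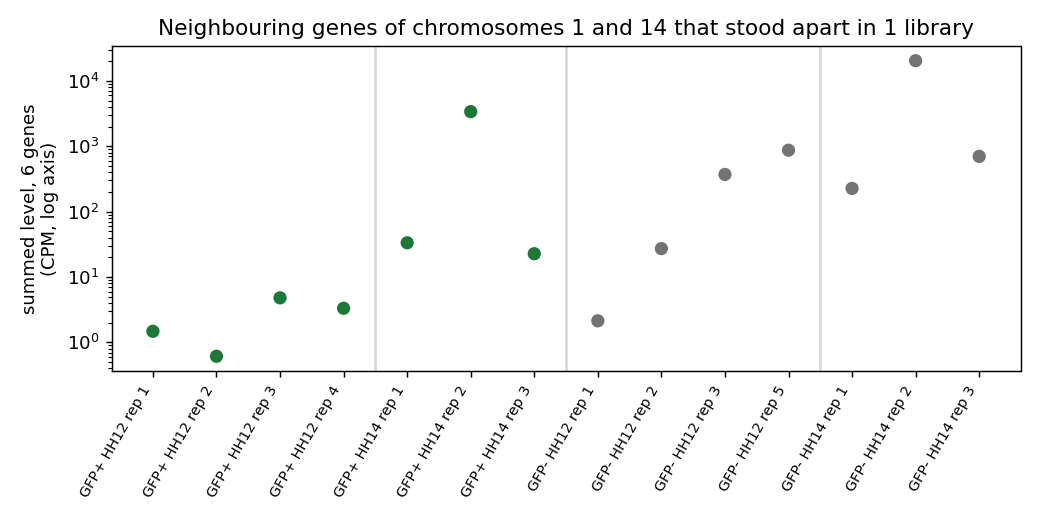
Points give the summed level, in CPM on a log axis, of 6 genes in 2 neighbour groups on chromosomes 1 and 14, for each GFP-positive (green) and GFP-negative (grey) library of HH12 and HH14. The GFP-positive values run from 0.614 to 4.80 CPM at HH12 and are 33.4, 3385 and 22.7 CPM at HH14, and replicate 2 is the highest HH14 library in both populations. The 6 genes were chosen by the height of GFP-positive HH14 replicate 2.

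Some of the separated genes were neighbours. Along the chromosomes, 15 runs of 2 or more adjacent tested genes had all their libraries separated in the same direction, 13 of them lower at HH14 and 2 higher, with 31 genes in all of the 498. Adjacency was counted along all 15737 tested genes, of which only the 9266 at 10 CPM or more could enter a run. The shares of 2.14% upward and 3.24% downward are over those 9266, so they are not the background for these runs. Some neighbours share a direction without any link, and whether these runs exceed that was not tested. The longest held 3 genes on chromosome 17 between 4947581 and 5181671, with fitted log2 changes from -0.57 to -0.92. The largest changes downward were in 2 pairs on chromosome 5, one between 725593 and 758616 at -1.40 and -1.73 and one between 24953840 and 24987701 at -1.31 and -1.47. A pair on the Z chromosome between 24754667 and 24760422 was higher at HH14, at 2.08 and 1.85. The members of each of these 3 pairs lie on 1 strand.

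By chromosome, the median changes were small for the numbered chromosomes and the Z, and larger for the few mitochondrial and W genes. The numbered chromosomes up to 10 and those above 10 lay on different sides of 0. The 3853 genes of chromosomes 1 to 5 had a median log2 fold change of -0.05, with 67 (1.74%) separated upward and 163 (4.23%) downward. The 1393 genes of chromosomes 6 to 10 had a median of -0.04, with 33 (2.37%) upward and 56 (4.02%) downward. The 3543 genes of the numbered chromosomes above 10 had a median of 0.07, with 92 (2.60%) upward and 76 (2.15%) downward. Over all genes the shares were 2.14% and 3.24%, and whether any of these groups differs from them was not tested. GFP-negative cells gave medians of -0.08, -0.05 and 0.09 for the same groups in that order. The 17 mitochondrial genes had a median of 0.24, against -0.09 in GFP-negative cells, and 1 gene separated in each direction. The mitochondrial share of counted reads was 4.81 ± 0.378% at HH12 (SD, n = 4) and 5.68 ± 0.888% at HH14 (SD, n = 3), with p = 0.171 by a two-sided exact permutation test, for which 0.0571 is the smallest value these group sizes allow. The 398 genes of the Z chromosome had a median of -0.01.

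The share of reads from the W chromosome, which in birds is carried by females, ran from 0.0323% to 0.191% over the 7 libraries. It was highest in HH12 replicate 4 and HH14 replicate 1, at 0.191% and 0.190%, and the same 2 libraries had the lowest Z shares, 2.06% and 2.02%. Between the stages the exact permutation test of the W share gave p = 0.629 (two-sided). The 16 genes of the W chromosome at 10 CPM or more had a median log2 fold change of -0.35, with 0 separated in either direction. The sexes of the embryos pooled for these libraries are not used here.

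The depth behind these values was uneven. The 7 crest libraries held 8222407 to 23476403 counted reads and 12234 to 14013 genes with at least 10 reads, and the shallowest was HH12 replicate 1. Another GFP-positive library of HH12, replicate 5, is in the full deposited table but was left out of the authors' filtered table. It came from the flow cell of HH14 replicate 3. Without TMM scaling it had 61.2 CPM of ENSGALG00000004254 and 410.1 CPM of ENSGALG00000003078, and 13 and 6 reads of ENSGALG00000017347 and ENSGALG00000043234. For ENSGALG00000004254 that is near the HH14 values and below the 4 kept HH12 libraries, while for ENSGALG00000003078 it is within the HH12 range. With all 50 libraries edgeR called 0 genes, with 232 at an unadjusted p under 0.05, and the lowest adjusted p was 0.0577.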

How the data were processed

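PolyA-selected, stranded RNA-seq was made from sorted cells of chicken heads with the NEBNext Ultra II Directional kit, per the labels' protocols. Reads were handled with cutadapt 2.10, HISAT2 2.1.0, SAMtools 1.9 and featureCounts 1.6.2, per the submitters' processing notes. The authors deposited whole-number read counts per gene on GRCg6a, made with reverse-stranded counting of Ensembl release 99 genes per the file headers. The filtered table holds 24356 genes in 42 libraries, and its counts are identical to those of the full table.

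The test was edgeR 4.0.16 (R 4.3.3) with TMM scaling and glmQLFit with robust dispersion on all 42 libraries in 12 groups. filterByExpr left 15737 genes and removed 8619. P-values were adjusted by Benjamini-Hochberg over all tested genes, with a threshold of 0.05, and the common dispersion was 0.219. Levels are CPM on TMM-scaled library sizes. The alternatives were DESeq2 1.42.0, limma 3.58.1 (voom), other scaling and filters, all 50 libraries, the 2 groups alone, each library left out, and the flow cell or the embryo pool as a block. The test was checked on simulated data. Permutation tests used SciPy 1.17.1. Standard errors of the edgeR changes were derived as the absolute log2 change divided by the square root of the quasi-likelihood F statistic. The intervals were built from them. Intervals from the fit cover the spread between libraries.

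Groups came from the labels. Embryo pools were inferred from titles that share a stage and a number or tag. The labels do not say that libraries came from separate batches of embryos. The p-values therefore stand for the spread among libraries, which may be partly technical. Crest libraries of a stage differed by more than sampling noise in every pair (chi-square divided by its degrees of freedom at least 14.4). The lowest value was that of HH12 replicates 1 and 2, which shared a flow cell and a tag in their titles. The other pairs gave at least 37.4. GFP-positive and GFP-negative libraries of the same inferred pool deviated together from their group means, with correlations of 0.128 to 0.619 over 6 pools. They also shared a flow cell.

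The comparison, the gene groups and the rule for named genes were chosen with earlier results of these data known. The rule took genes past the threshold, and, if fewer than 8 passed, the 10 smallest unadjusted p-values in each direction among genes at 10 CPM or more without overlap, of which 2 each way are named. Both marker genes of the sorted cells were chosen by p-value at the other stages after the data were seen. The reference gene table has 25635 rows and 0 Ensembl identifiers, so 0 identifiers were matched, and 31 gene lists by symbol were not tested.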

Additional observations from a re-analysis of the deposited data

Results flagged for a closer look

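In 20 groups of 4 libraries or more examined for a library far from the others, 2 had one, where chance gives about 1 in 20. For ENSGALG00000002515 in GFP-positive cells at HH12, replicate 3 had 155 CPM and the other 3 libraries lay between 165.6 and 167.5 CPM. For ENSGALG00000043204 in GFP-positive cells at HH12, replicate 4 had 84.8 CPM and the other 3 lay between 37.3 and 44.7 CPM. Both groups hold the same 4 libraries, so they are not separate cases.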

How the results depend on the processing

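The count of 0 called genes between HH12 and HH14 in GFP-positive cells was also obtained with DESeq2 size factors, limma voom, no filter, a filter of 1 CPM in 3 libraries, the 2 groups alone, all 50 libraries, each of the 7 libraries left out (0 to 0), and the flow cell or the embryo pool as a block (0 with each block, 453 at an unadjusted p under 0.05 with the pool). DESeq2 in place of edgeR gave 8, and 0 without HH14 replicate 2, a setting chosen after the data were seen, as were the other readings without that library. The counts for GFP-negative cells and for the difference between the populations were 0 in every setting run, the pool block included. The median change of the 347 genes lower in GFP-positive cells at the other stages was near 0 in the main fit. When 1 library was left out it ran from -0.118 to 0.129. This included 0.0509 without HH12 replicate 3, 0.129 without HH12 replicate 4 and 0.056 without HH14 replicate 3. In the 2 flow cells with both stages it was -0.189, and with the flow cell as a term -0.102. The cause was not tested. The medians of the groups taken from HH10 against HH16 kept their sign in every setting. With 3 and 4 libraries, the intervals of many genes are wider than a 2-fold change.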
